A study of Mus musculus with 4 samples.

Results

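The regions described here are narrow H3K36me3 peaks that were called in the KI strain inside protein-coding genes, at places where no H3K36me3 region of either kind was called in B6. They are the refined peaks of the KI list on the 19 autosomes that overlapped a protein-coding gene of the GENCODE annotation of mm9 by at least 1 bp and met no B6 refined peak and no B6 broad region. They were thus chosen by the positions called in the lists of both strains. There were 9652 such KI-specific genic peaks among 50260 genic KI refined peaks on autosomes, a share of 19.2%, and among 131194 refined peaks of both strains. The same rule with the strains exchanged gave 15477 B6-specific genic peaks, or 37.1% of the genic B6 refined peaks. Because the absence of a B6 region chose the peaks, these shares are descriptions of the lists and no test was made of them. By autosome, the KI share ran from 14.5% on chromosome 13 to 22.8% on chromosome 7. The label of genes unmarked in B6 is true of the place of each peak, but not of most genes around the peaks. For 1435 peaks, 14.9% (Wilson 95% interval 14.2% to 15.6%), no gene that held the peak had a B6 region anywhere.

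The lists come from ChIP-seq of histone H3 trimethylated at lysine 36 in spermatocytes of mice at 14 days post-partum, with inputs labelled 15 days post-partum. B6 is C57BL/6J, and KI is B6.Cg-Prdm9<tm1.1Kpgn>/Kpgn, a knock-in on the B6 background in which the part of Prdm9 encoding the zinc finger array is that of the CAST allele, Prdm9 Cst. Chromatin was fragmented with micrococcal nuclease, and the antibody is H3K36me3 in the sample titles but H3K36me6 in another label. The reads of 2 biological replicates were merged in each strain before peaks were called against 1 input, so replicate error is unknown for every value and the strains could not be tested against each other. Intervals on shares are Wilson 95% intervals and those on densities are exact Poisson 95% intervals. Both cover the number of peaks only, and the range over autosomes is given as a second measure of spread. The lists hold positions without heights, scores or read numbers, so the depth behind a peak is unknown. By the study's methods the merged KI reads were more numerous than those of B6, and the part of read number in the lists was not tested.

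H3K36me3 is placed along the bodies of transcribed genes by the methyltransferase SETD2, which travels with elongating RNA polymerase II. In meiotic germ cells a second methyltransferase, PRDM9, binds DNA through its zinc fingers and trimethylates H3K4 and H3K36 on the nucleosomes beside its binding site, and these sites become hotspots of meiotic recombination. The zinc fingers differ between Prdm9 alleles, so B6 and KI use different hotspots. A peak inside a gene can therefore lie in marked chromatin of either origin, and the peak lists do not say which.

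The DNA at the peaks was not used to choose them. A list of 20 10-mers was drawn up for their excess in KI-specific over B6-specific genic peaks on odd-numbered autosomes, in the 400 bp at the middle of each peak, and was then counted on even-numbered autosomes. The 10 stretches that follow show the listed 10-mers of rank 1 to 10 in a KI-specific genic peak each, namely the one where the 10-mer lay nearest to the middle of the peak, among sites with no other listed 10-mer starting up to 15 bp before it on the plus strand. They are read 5′ to 3′ from the mm9 genome, with the 10-mer in capitals between 30 bases on each side.
Smoc1 (chr12:82234209-82234278, plus strand, intron): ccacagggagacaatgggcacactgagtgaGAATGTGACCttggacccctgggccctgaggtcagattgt
Large (chr8:75545947-75546016, minus strand, intron): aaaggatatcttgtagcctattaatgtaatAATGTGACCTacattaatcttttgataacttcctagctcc
BB287469 (chr12:88836347-88836416, plus strand, intron): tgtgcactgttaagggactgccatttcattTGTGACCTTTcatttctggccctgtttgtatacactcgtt
Nrxn3 (chr12:90863117-90863186, minus strand, intron): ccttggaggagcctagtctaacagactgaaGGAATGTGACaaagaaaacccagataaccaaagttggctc
Lingo2 (chr4:36448429-36448498, plus strand, intron): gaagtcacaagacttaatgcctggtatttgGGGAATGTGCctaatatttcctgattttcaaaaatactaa
Dnm1 (chr2:32199637-32199706, plus strand, intron): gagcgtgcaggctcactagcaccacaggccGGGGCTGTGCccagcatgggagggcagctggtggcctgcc
Slc25a21 (chr12:58155292-58155361, plus strand, intron): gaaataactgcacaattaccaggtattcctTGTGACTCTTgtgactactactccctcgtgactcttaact
Ptprd (chr4:77310682-77310751, plus strand, intron): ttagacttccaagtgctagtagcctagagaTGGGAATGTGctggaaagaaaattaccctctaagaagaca
Slc1a2 (chr2:102601248-102601317, minus strand, coding exon): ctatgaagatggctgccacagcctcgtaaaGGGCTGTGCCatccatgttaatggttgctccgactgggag
Gars (chr6:54993023-54993092, plus strand, intron): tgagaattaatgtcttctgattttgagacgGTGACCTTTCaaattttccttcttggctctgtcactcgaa

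Of these stretches, 9 of 10 lay in introns and 1 in a coding exon, that of Slc1a2, which encodes a glutamate transporter. Of the listed 10-mers, 7 of 20 overlapped one another by 8 or 9 bases and could be joined into a chain of 17 bases, tggGAATGTGACCtttc, where the capitals mark the 10-mer of rank 1. Of the 10-mers in that chain, 6 are shown in the stretches of Smoc1, Large, BB287469, Nrxn3, Ptprd and Gars. The 10-mers GGGGCTGTGC and GGGCTGTGCC, shown in Dnm1 and Slc1a2, lie outside that chain.

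On even-numbered autosomes, 361 of 4477 KI-specific genic peaks held a listed 10-mer on either strand, which is 8.06% (7.30% to 8.90%). Of the B6-specific genic peaks, 185 of 7647 did, or 2.42% (2.10% to 2.79%). The difference was 5.64 percentage points (Newcombe 95% interval 4.80 to 6.54). The 9 even-numbered autosomes ran from 6.41% to 10.8% for KI-specific and from 1.504% to 2.88% for B6-specific peaks, so the ranges did not overlap. In windows 2 kb to either side of the same peaks, the share was 2.46% beside KI-specific and 2.43% beside B6-specific peaks. For this list, only the KI-specific peaks of the pair stood above their own surroundings. The list was chosen for its excess over B6-specific peaks, and none was drawn for the reverse. Whether B6-specific peaks hold sequences of their own was therefore not tested. KI refined peaks in genes that met a B6 region held a listed 10-mer in 3.42% (3.17% to 3.69%), against 2.15% beside them. KI-specific peaks outside genes held one in 10.1% (9.35% to 10.9%), and the share in genes minus that outside genes was -2.04 percentage points (-3.15 to -0.92).

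The single 10-mers differed in how far their excess held on the counted autosomes. GAATGTGACC, first in rank, was found in 0.670% of KI-specific and 0.0785% of B6-specific peaks, a ratio of 8.54. The largest ratio was that of GGGAATGTGC, at 15.4, which rested on 27 and 3 peaks. TGTGACCTTT was found in the most KI-specific peaks, 58 against 14. At the other end, TGGGGCTGTG had a ratio of 1.63 and TGTGGAGACT of 1.37. The ratio was above 1 for each of the 20. When the chain of 17 bases was searched with up to 3 mismatches, a form chosen after the 10-mers were seen, 102 of 4477 KI-specific peaks held it, or 2.28% (1.88% to 2.76%), against 0.201% of the windows beside them. Among B6-specific peaks, 10 of 7647 held it, 0.131% (0.0710% to 0.241%), against 0.170% beside them. No peak of either set on these autosomes held the chain without a mismatch.

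The 10-mers were most dense to both sides of the middle of the KI-specific peaks, and less so at the middle itself. At 100 to 150 bp from the middle there were 17.9 sites per 1000 peaks in each 50 bp, counting both sides, and at 0 to 50 bp there were 6.25. Between 50 and 100 bp the density was 9.27, between 150 and 200 bp 9.16, between 200 and 400 bp 6.23, and from 400 bp outwards 3.37. At B6-specific peaks the same densities stayed between 1.90 and 3.79 at all distances up to 2000 bp. The refined peak had a median width of 303 bp, so sites at 100 to 150 bp lay towards its edges. KI-specific peaks outside genes had the same 2-sided profile, with 24.2 sites per 1000 peaks at 100 to 150 bp. A few of the matches were copies of a longer sequence, 15 of the 361 peaks by the identity of the bases around the 10-mer. Without them the share was 7.73% (6.98% to 8.55%). By site, copies were concentrated in CCAGTTAAGA, with 7 of 15 sites, GAATGTGACC, with 4 of 12, and TGGGAATGTG, with 4 of 29. No repeat annotation was used, so the bases around the 10-mer were the only check for repeats.

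**Figure D1:**
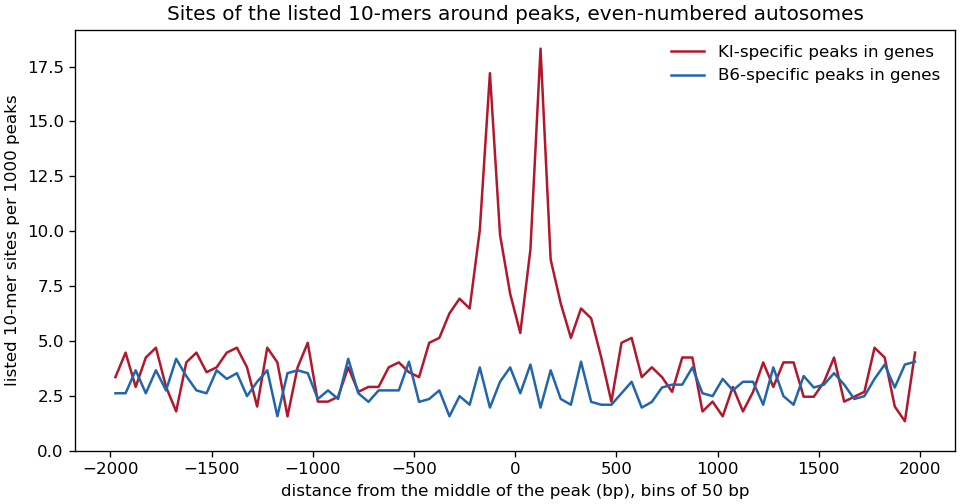
Sites of the 20 listed 10-mers per 1000 peaks (vertical axis) in bins of 50 bp against the distance from the middle of the peak in bp (horizontal axis), for KI-specific (red) and B6-specific (blue) genic peaks on even-numbered autosomes. The red line has 2 maxima, one at 100 to 150 bp on each side, and the blue line stays low throughout.

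The share with a listed 10-mer varied with the chromatin around the peak, none of which entered the choice of the 10-mers. It rose with the width of the KI broad region that held the peak, from 4.43% (3.54% to 5.53%) in regions of 2000 bp to 11.03% (8.89% to 13.6%) at 3000 bp and 16.0% (10.5% to 23.6%) at 5500 bp and more, the last class holding 119 peaks. It was lower where KI peaks were dense. With another KI refined peak less than 2 kb away it was 5.16% (3.72% to 7.12%), and with the nearest one at 20 to 50 kb it was 10.7% (8.78% to 13.1%). In genes with 0 to 5% of their span in KI regions it was 9.64% (8.02% to 11.5%), and in genes with 50% or more it was 5.40% (3.96% to 7.32%). Peaks that overlapped an exon, with 9.40% (7.14% to 12.3%), and those that did not, with 7.90% (7.10% to 8.77%), had overlapping intervals. The share beside the peaks stayed between 1.69% and 3.78% in all of the classes of width, distance and coverage.

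**Figure D2:**
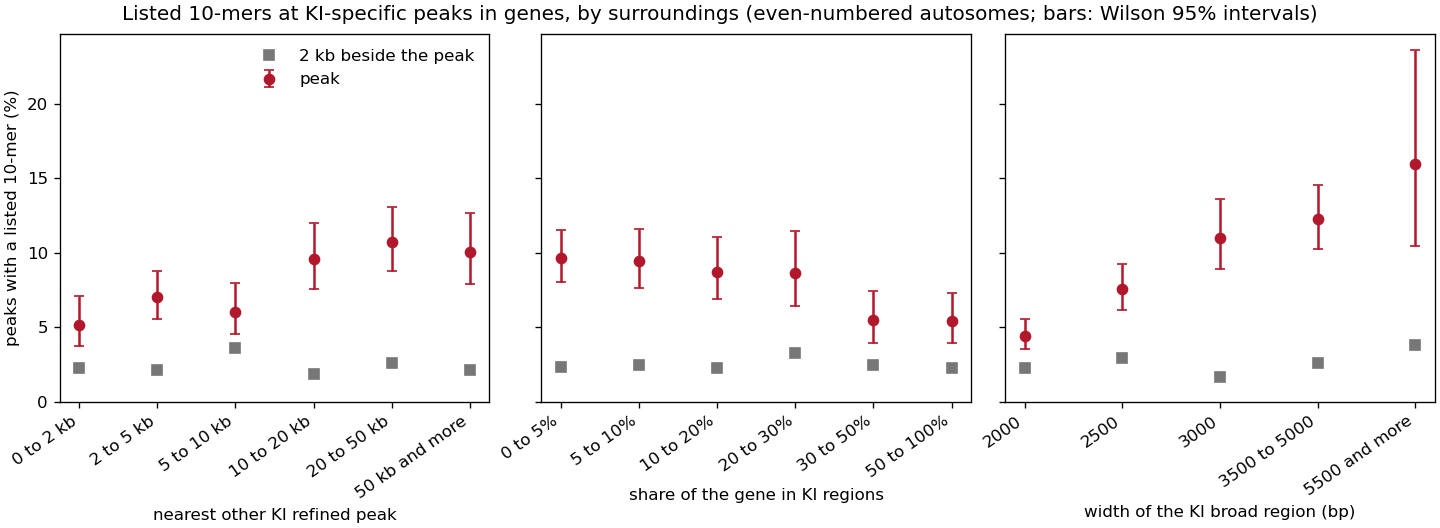
Share of KI-specific genic peaks with a listed 10-mer (vertical axis, in percent) on even-numbered autosomes, by the distance to the nearest other KI refined peak (left), the share of the gene in KI regions (middle) and the width of the KI broad region in bp (right). Red points are shares with Wilson 95% intervals and grey squares are the windows 2 kb beside the same peaks; the red points rise from 4.43% to 16.0% with the width of the broad region.

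KI-specific genic peaks were narrower and farther from other KI peaks than the genic KI peaks that met a B6 region, but not than KI-specific peaks outside genes. Their median width was 303 bp (interquartile range 254 to 478 bp, medians by autosome 288.5 to 316 bp), against 329 bp for genic KI peaks that met a B6 region, 310 bp for B6-specific genic peaks and 294 bp for KI-specific peaks outside genes. The KI broad region around them had a median width of 2500 bp (interquartile range 2000 to 3000 bp), the same as around B6-specific peaks and less than the 4000 bp (2500 to 9000 bp) around the KI peaks that met a B6 region. The rule bears on this comparison, since a wide KI region has more room to meet a B6 region. The nearest other KI refined peak was a median of 8.28 kb away, against 3.89 kb for the KI peaks that met a B6 region and 20.5 kb for KI-specific peaks outside genes. For B6-specific genic peaks, the nearest other B6 refined peak was a median of 3.87 kb away. The widest were a peak of 2590 bp in an intron of Unc5b, a netrin receptor gene, at chr10:60282002-60284591, one of 2552 bp over a coding exon of the sialidase gene Neu4 at chr1:95921607-95924158, and intronic peaks of 2447 bp in Pard3b, 2351 bp in Srgap3 and 2225 bp in Atp8a2. At the edge of the rule, the nearest peak lay 1 bp from a B6 region, and 1061 peaks (10.99%) lay within 500 bp of one. The median distance was 8.11 kb and 1744 peaks (18.1%) lay more than 50 kb away. Just outside the rule, 588 of the 40608 genic KI peaks that met a B6 region were covered by it over less than 50% of their width, and the smallest overlap was 1 bp.

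Most of the peaks were intronic. Of the 9652, 8537 overlapped no exon, a share of 88.4% (87.8% to 89.1%), against 79.3% (78.9% to 79.7%) of genic KI peaks that met a B6 region. The difference was 9.18 percentage points (8.42 to 9.92) and had the same direction on 19 of 19 autosomes. B6-specific genic peaks were at 88.9% (88.4% to 89.4%). The DNA open to each set differs in the same way. Exons made up 5.84% of the gene span free of B6 regions and 10.9% of the gene span inside them, while the middle of the peak lay in an exon for 5.51% (5.07% to 5.99%) of KI-specific peaks and for 11.8% of the KI peaks that met a B6 region. The middle was in coding sequence for 260 peaks, in untranslated exon sequence for 222 and in another exon for 50. For 93 peaks (0.964%) it lay within 1 kb of the 5′ end of a gene. The share was 0.404% for genic KI peaks that met a B6 region and 0.362% for B6-specific genic peaks.

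Along genes of at least 20 kb, the peaks were least dense at the start. When each gene was divided into 10 parts of equal length, the part at the 5′ end held 13.3 peaks per Mb free of B6 regions (12.4 to 14.3), the part after it held 18.3 (17.2 to 19.5), and the remaining ones held between 15.6 and 18.1. B6-specific peaks likewise were least dense at the 5′ end, with 20.4 per Mb free of KI regions (19.3 to 21.5). Along the autosomes, whose centromeres lie at the first base, divided into 5 parts of equal length, the density rose from 14.9 (14.1 to 15.6) in the part next to the centromere to 18.7 (17.98 to 19.5) in the part farthest from it, but the latter was above the former on only 12 of 19 autosomes.

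Over all protein-coding genes, there were 16.6 KI-specific peaks per Mb of gene span free of B6 regions (16.3 to 16.9), with autosomes between 12.9 and 21.5. The order of genes by their B6 cover depended on the denominator. Genes with 50% or more of their span in B6 regions held 40.8 per free Mb (38.9 to 42.7), those with some but less than 50% held 16.1 (15.7 to 16.5), and those with none held 10.5 (9.94 to 11.01). Per Mb of the whole gene span the same classes held 4.97, 14.4 and 10.5, so the densest class by free span was the sparsest by whole span. Per free Mb, the lowest autosome in the first of these classes, at 28.6, was above the highest in the last, at 15.2. By length, the density was 20.9 per free Mb (20.1 to 21.8) in genes of 30 to 100 kb and 12.8 (12.4 to 13.3) in genes of 300 kb and more, while per Mb of whole span the direction was reversed, with 9.21 and 10.8.

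**Figure D3:**
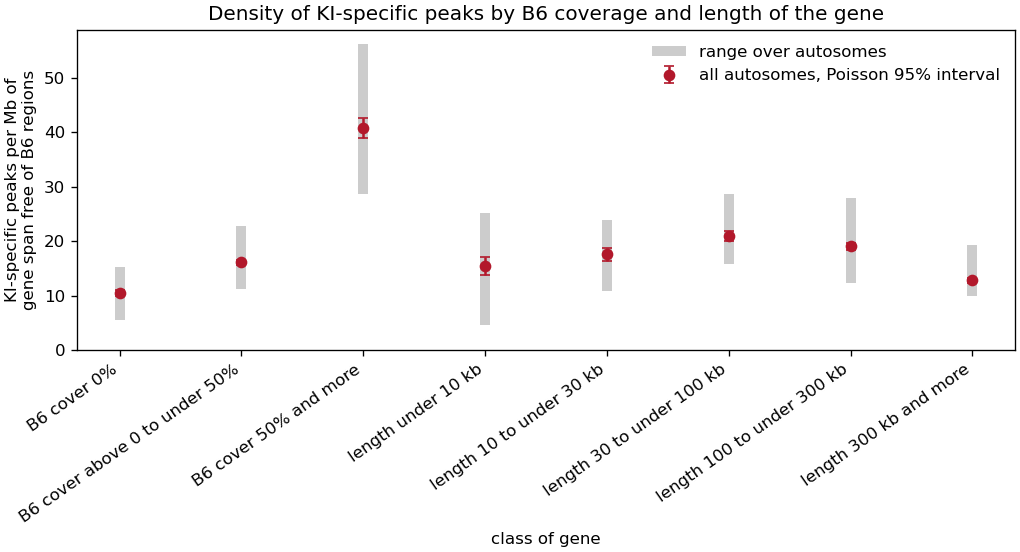
KI-specific peaks per Mb of gene span free of B6 regions (vertical axis) in classes of genes by the share of the gene in B6 regions and by gene length. Red points with bars are all autosomes with exact Poisson 95% intervals and grey bars span the autosomes; genes with 50% or more in B6 regions stand at 40.8 and genes with none at 10.5, where by whole span they would stand at 4.97 and 10.5.

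The peaks fell in 3897 of 21418 protein-coding genes (18.2%), while B6-specific peaks fell in 4158 (19.4%). Of the 3897 genes, 1978 held 1 peak, 1407 held 2 to 4, 390 held 5 to 9 and 122 held 10 or more. Those 122 genes held 1743 of the peaks. Genes with a peak were long, with a median of 70.5 kb against 15.5 kb over all genes, and 3063 peaks (31.7%) lay in genes of 300 kb or more. Both kinds of strain-specific peak were present in 2248 genes, which is 57.7% of the genes with KI-specific and 54.1% of those with B6-specific peaks. These genes had a median length of 121.0 kb, against 31.3 kb for genes with KI-specific peaks alone. Of 8417 genes with no B6 region at all, 1006 held a KI-specific peak.

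The genes with the most peaks were among the longest. Gm20388 held 42 over a span of 4435 kb and Fgfr2, which encodes a fibroblast growth factor receptor, held 39 over an annotated span of 3009 kb. These spans contain 72 and 31 other protein-coding genes, so their peaks cannot be assigned to 1 gene. Park2, encoding the ubiquitin ligase parkin, held 29 KI-specific and 21 B6-specific peaks in 994.5 kb. The transcription factor gene Sox6 held 25 KI-specific and 27 B6-specific peaks, and the calcium channel gene Cacna1c held 22 and 32. Sdk1, an adhesion molecule, went further the other way, with 26 KI-specific and 77 B6-specific peaks. Ptprd and Ptprt, receptor tyrosine phosphatases, held 23 KI-specific peaks each, beside 22 and 13 B6-specific ones. Further genes of the leading 15, Nckap5, Agbl4, Trappc9, Hpse2 and Arfip1, held 21 or 22 KI-specific and 20 to 74 B6-specific peaks.

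Pde1c, a calmodulin-dependent phosphodiesterase gene at chr6:56019815-56319628, was the one gene of these 15 in which B6-specific peaks were few. It held 23 KI-specific and 2 B6-specific peaks, and KI regions covered 27.0% of its span against 9.34% in B6. Crisp2, at chr17:40901683-40943952, encodes a cysteine-rich secretory protein of the sperm acrosome and tail. It held 10 KI-specific peaks in 42.3 kb, KI regions covered 52.0% of it, and no B6 region met it. Spag6, at chr16:16753109-16829549, encodes a protein of the central apparatus of the sperm flagellum. It held 9 KI-specific peaks and no B6-specific peak, with 33.4% of its span in KI and 2.62% in B6 regions.

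**Figure D4:**
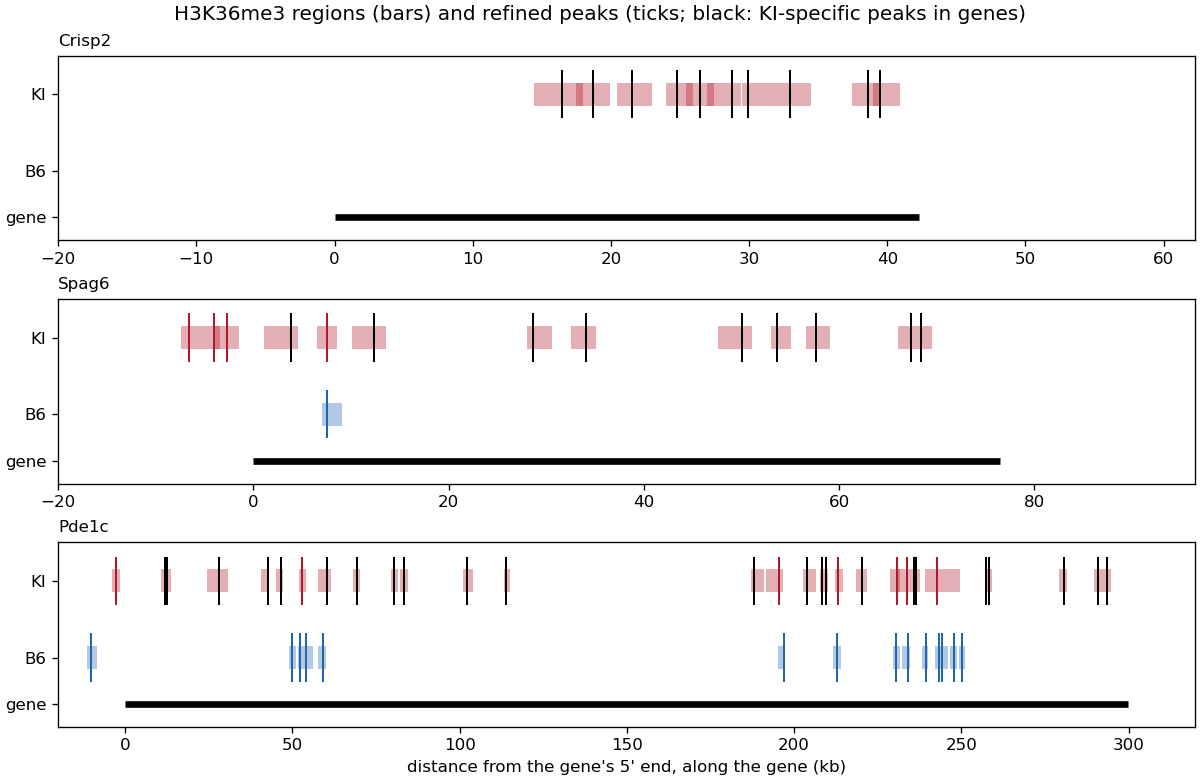
H3K36me3 regions of KI (red) and B6 (blue) over Crisp2, Spag6 and Pde1c, with the distance from the 5′ end of the gene in kb on the horizontal axis and the gene as a black bar. Pale bars are broad regions and ticks are refined peaks, black where the peak is a KI-specific genic peak; Crisp2 holds 10 black ticks and no B6 region.

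Genes of this kind were looked for across the annotation, after the values of Crisp2 had been seen. Of 512 genes with 5 or more KI-specific peaks, 42 held no B6-specific peak. In the exchanged comparison, 150 of 918 genes with 5 or more B6-specific peaks held no KI-specific peak. KI regions covered a median of 24.9% of the 42 genes and B6 regions 1.25%, a direction that the choice of the genes favours. How many of the 42 have a role in sperm or cilia was not counted, and the examples that follow were picked after their values were seen. Adam2 and Adam5 encode membrane proteins of sperm and held 8 and 7 peaks. Dnahc1, Dnahc14 and Dnahc17 encode axonemal dynein heavy chains and held 9, 5 and 5. Spag17, of the flagellar central apparatus, and Fsip2, of the fibrous sheath, held 7 each. The 42 also include Slc12a3, the sodium chloride cotransporter of the kidney, with 5 peaks, and Trp73, a gene of the p53 family, with 5. The locus 4932414N04Rik is annotated as 2 overlapping genes and enters the 42 with both. In the peaks of these genes on even-numbered autosomes, a listed 10-mer was found in 15 of 183, or 8.20% (5.03% to 13.1%), beside 8.06% (7.28% to 8.91%) in the peaks of other genes.

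**Figure D5:**
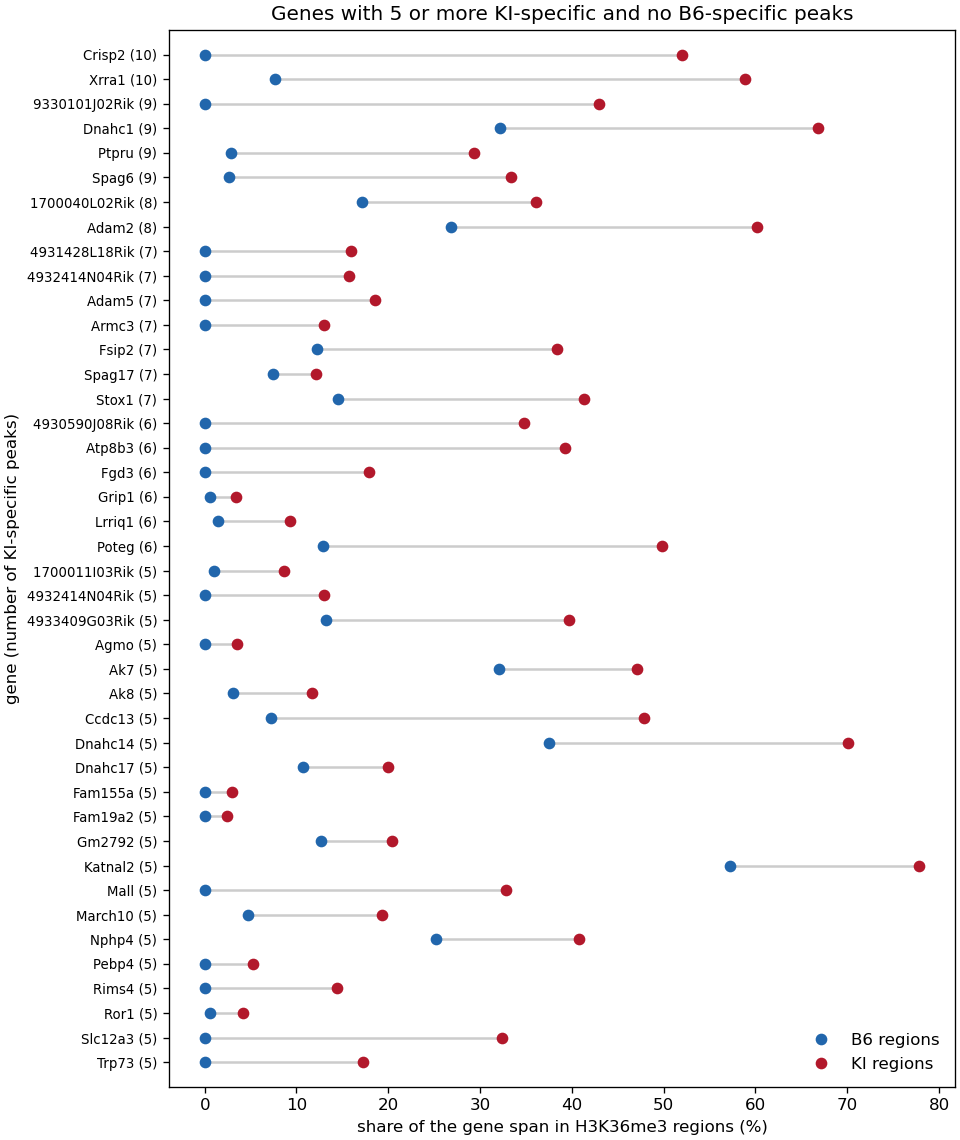
Share of the gene span in KI regions (red) and B6 regions (blue), in percent on the horizontal axis, for the 42 genes with 5 or more KI-specific and no B6-specific peaks, with the number of KI-specific peaks in parentheses. The red point lies to the right of the blue point in each gene, a direction that the choice of the genes favours.

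The densest genes of at least 50 kb overlapped this group. Xrra1, at chr7:107007728-107066334, held 10 KI-specific peaks, or 170.6 per Mb, with 58.9% of its span in KI and 7.68% in B6 regions. Adam2 followed with 158.7 per Mb, E230008N13Rik with 148.8, Dnaic1, a dynein intermediate chain gene of the axoneme, with 146.2 and Dnahc1 with 141.7. Among genes of at least 10 kb that no B6 region met, Fbxo43, at chr15:36079815-36094639, had the largest share in KI regions, 75.5% with 4 peaks. Its product inhibits the anaphase-promoting complex in meiosis. Acot6, an acyl-CoA thioesterase gene, had 68.2% with 2 peaks, 4933440M02Rik 57.1% with 3 and Tm7sf4 56.7% with 3.

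Gene groups differed widely in how many members held a KI-specific peak, where over all protein-coding genes 18.2% did. Of 42 genes of the synaptonemal complex, recombination and germ cells, 3 held one, namely Mei4 with 2 and Kit and Tex14 with 1 each, and the median cover of the 42 was 97.0% in KI and 97.7% in B6. Of 134 genes taken as cytosolic ribosomal protein genes by the symbols Rpl and Rps alone, 3 held one, and of 41 proteasome subunit genes 1 did. Both groups had medians above 93% in both strains. The 3 were Rpl11, Rpl13a and Rpl21-ps4, the last an entry of 0.441 kb with the name of a pseudogene. Per Mb free of B6 regions, the germ cell list held 14.4 peaks (3.94 to 37.0). Ribosomal protein genes held 44.0 (9.07 to 128.5) and proteasome genes 16.3 (0.414 to 91.0). Each interval holds the 16.6 over all genes. The rule allows no peak inside a B6 region, which left little of these highly covered genes open. At the other end, 1081 olfactory receptor genes, with a median length of 0.963 kb and a median cover of 0 in both strains, included 12 with a peak, and 319 vomeronasal receptor genes included 14. Of 56 entries in a list of genes of long span, many of them for neuronal adhesion and synapse, 52 held a KI-specific peak. They held 442 in all. The list also includes Park2, the gene of parkin, with 29 peaks and Macrod2 with 17. Per Mb free of B6 regions the list held 8.56 (7.78 to 9.40), below the 16.6 over all genes. Its median length was 945.0 kb, and genes of 300 kb and more held 12.8 (12.4 to 13.3). B6-specific peaks were sparse in the list as well. They numbered 7.29 per Mb free of KI regions, beside 19.4 in genes of 300 kb and more and 25.4 over all genes. Per Mb free of B6 regions, cadherins and protocadherins held 8.55 KI-specific peaks, potassium and calcium channel genes 14.2 and solute carriers 15.8. Collagens held 16.7 and zinc finger genes of the Zfp name 18.9. In this order, 26 of 63, 51 of 107, 93 of 343, 27 of 42 and 43 of 362 genes held a KI-specific peak.

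Families of sperm and cilium genes were counted after the 42 genes had been seen, so their counts are not independent of them. Of 17 axonemal dynein genes, with a median length of 128.3 kb, 16 held a KI-specific peak and 12 a B6-specific peak. Over all genes, with a median length of 15.5 kb, 18.2% held the former and 19.4% the latter. Of 1778 genes of 100 to under 300 kb, 1085 held a KI-specific peak. The dynein genes held 100 KI-specific peaks, or 49.3 per Mb free of B6 regions (lower bound of the 95% interval 40.1). They held 33 B6-specific peaks, or 17.9 per Mb free of KI regions, where all genes had 16.6 and 25.4. Dnahc8 held 18 and 3, Dnahc7b 10 and 7, Dnaic1 10 and 1. Of 13 tektin and outer dense fiber genes, 5 held a KI-specific peak and none held a B6-specific one, with 6 peaks in all. The 3 sperm-associated antigen genes with a peak, of 11, held 29 KI-specific and 6 B6-specific peaks between them, 13 and 6 of which were in Spag16. In the Spata genes the numbers were alike, 21 and 22, with 14 and 6 in Spata17 and 1 and 12 in Spata13. In the ADAM family they were 42 and 35. Over all genes they were 9652 and 15477. KI-specific peaks per Mb free of B6 regions numbered 32.8 (20.3 to 50.1) in Spata and 30.5 (22.0 to 41.2) in ADAM genes, beside 16.6 over all. B6-specific peaks per Mb free of KI regions numbered 33.3 and 25.4, beside 25.4 over all. In the 11 sperm-associated antigen genes, the KI-specific density was 24.2 (16.2 to 34.7), an interval that holds 16.6. Their B6-specific density was 5.23. The median cover of these 11 genes was 35.1% in KI and 70.8% in B6. None of the 6 testis-specific serine kinase genes, which are short, held a peak of either kind.

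The labelled cell type was checked by the cover of marker genes. All 10 germ cell markers had 50% or more of their span in broad regions in both strains, with medians of 98.7% in KI and 98.7% in B6. Sertoli cell markers differed between the strains. Their 8 genes had a median cover of 0.167% in KI (range 0% to 8.49%) and 24.7% in B6 (range 0% to 71.7%), with 4 at 0 in KI and 1 at 0 in B6. Wt1 was covered to 8.49% in KI and 71.7% in B6, and Sox9 to 0% and 45.2%. Cldn11 differed less, with 0% and 5.19%, and Dhh was at 0% in both. Fshr went the other way, with 4.50% in KI and 3.24% in B6. Of 6 Leydig cell markers, 4 were at 0 in each strain, though not the same 4, and Star was at 100% in both. Lhcgr was at 0% in KI and 4.96% in B6, and Cyp11a1 at 1.51% in KI and 0% in B6. KI-specific peaks were present in Tex14, Fshr and Gata4 among all 24 markers. The cover of most, but not all, Sertoli cell markers was thus lower in KI. The part of this difference in the KI-specific peaks, those of the sperm and cilium genes included, was not tested. In pooled cells, a change in the share of a cell type and a change of the mark within a cell cannot be told apart.

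GC content at KI-specific genic peaks was close to that of their surroundings. The 400 bp at the middle had a mean of 44.4% (SD over peaks 6.21) and the windows 2 kb away 44.7%, a difference of -0.28 percentage points, with autosomes from -0.82 to 0.12 and 14 of 19 below 0. With windows of 200 bp the difference was 0.12, so its sign depended on the window. At B6-specific genic peaks it was -1.503 percentage points and below 0 on 19 of 19 autosomes. CpG dinucleotides numbered 0.917 per 100 bp at KI-specific peaks and 1.04 beside them.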

How the data were processed

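H3K36me3 ChIP-seq and input reads of spermatocytes were aligned to mm9 by the authors with BWA (version 1.2.3 in the submitters' processing notes). Uniquely placed reads were kept, the 2 replicates of a strain were merged, and peaks were called with ZINBA against the input. The files deposited by the authors give the chromosome, start and end of broad (unrefined) regions and narrow (refined) peaks, read here as 1-based with both ends included. They hold no counts or scores, so depth per peak is unknown.

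Overlaps were computed with numpy 2.4.6 and pandas 2.3.3 (Python 3.11.15), intervals with scipy 1.17.1 and plots with matplotlib 3.10.9, on the GENCODE vM1 annotation and the NCBIM37 sequence (both mm9). Overlap, cover, distance and the choice of 10-mers were tested on simulated data, and the other steps were not. The 10-mers were ranked by the lower 95% bound of the log odds, with at least 5 peaks each and simple repeats left out, and matches starting within 15 bp of each other counted as 1 site. A peak was a copy where at least 60% of 30 bases around the 10-mer matched the majority base on odd-numbered autosomes.

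Members, lists and tests were chosen with earlier results of these data known. The named genes are the 15 with the most peaks, the 5 densest of at least 50 kb with 5 or more peaks, the 5 widest peaks, the 5 genes of at least 10 kb without a B6 region and with the largest KI cover, 10 peaks with a listed 10-mer (1 per 10-mer, on even-numbered autosomes other than 18), and the leading genes of the lists. A gene of the 15 is not reported here. Genes named beyond these were chosen after their values were seen. Alternatives changed the distance to B6 regions, what counts as a B6 region, overlap, gene and exon sets, merging, windows, 10-mer length and number, and the autosomes used to choose. The input samples have no list of their own, and RNA-seq and hotspot positions were not used here.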

Additional observations from a re-analysis of the deposited data

How the results depend on the processing

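No paired analysis was possible because each strain has 1 pooled list, and for the same reason no replicate could be left out. What stands for B6 mattered most. With B6 refined peaks alone, 42306 genic KI peaks were KI-specific (84.2%), with medians of 317 bp for the peak and 3500 bp for the broad region, 82.3% without an exon, 4.99% in genes with no B6 region and 3.34% with a listed 10-mer, against 1.82% of B6-specific peaks. With no B6 region within 500 bp, the share was 17.1%, 16.7% were in genes with no B6 region and 6.77% held a 10-mer. With a B6 region counted only where it covers 50% of the peak, the share was 20.4%, the median width 308 bp and the share in B6-free genes 14.0%. Genes of any type gave 19.9%, 87.5% without an exon and 16.2% in B6-free genes. Merging KI peaks within 1000 bp gave a median width of 312 bp. By the middle of the peak, 94.5% lay in no exon, and by refined peaks alone 16.3% were in genes with no B6 peak. Over the whole gene span there were 10.2 peaks per Mb, and among genes of at least 100 kb, 84.2% of those with KI-specific peaks held B6-specific ones. The share with a 10-mer was 6.07% with the autosomes exchanged, 2.50% in windows of 200 bp, 2.14% for 12-mers and 4.15% for 10 listed 10-mers, and the added chain gave 2.28%. In each of the planned 10-mer settings the KI-specific share stayed above the B6-specific one, by ratios from 1.84 to 7.45. The GC difference changed sign in windows of 200 bp, to 0.12 percentage points. The other 16 values stayed within the interval of the reported value or, for counts, within 1.5 times. Without scores, heights or replicates, weak and strong peaks cannot be told apart.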

Other observations

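On the sex chromosomes, which the rule leaves out, 602 of 3176 KI refined peaks in protein-coding genes of chromosome X met no B6 region, a share of 18.95% (17.6% to 20.4%), beside 19.2% on the autosomes. On chromosome Y it was 1 of 83, or 1.205% (0.213% to 6.51%).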
